A study of Sus scrofa with 12 samples.

Results

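RNA-Seq values were examined for 7 genes that encode enzymes of amino acid and folate catabolism, in back subcutaneous fat and longissimus dorsi (LD) muscle of Dingyuan pigs. The genes were AASS and GCDH of lysine breakdown, FAH of tyrosine breakdown, HAL of histidine breakdown, CTH and TST of sulfur amino acid metabolism, and ALDH1L1 of the folate pathway. They were taken by the identifiers that the study's gene tables give for them, and they are 7 of the 31903 gene identifiers measured. All 7 stand in the study's table of genes lower in high backfat pigs and 0 of the 7 stand in its table for the muscle, so their high against low values in the fat are given as a description and are no independent evidence.

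Dingyuan pigs are a native Chinese breed, and the animals were unmated sows aged 300 days, chosen for extreme backfat thickness among sows of similar body weight. The fat came from pigs whose backfat was thick (HBF) or thin (LBF) and the LD muscle from pigs rich (HIMF) or poor (LIMF) in intramuscular fat, with 3 libraries in each of the 4 groups and 12 in all. No treatment or genetic change was applied, and the groups were formed on the measured trait, so they differ in whatever varies along with it. The labels do not say which fat and muscle libraries came from the same pig. Levels are FPKM, which correct the fragments of a gene for its length and for the size of the library, so they can be set side by side between genes, but the number of reads behind a value is unknown and no counting error can be given. The tissues were sequenced in bulk, where fewer cells of a type and less RNA per cell cannot be told apart.

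Each of these enzymes acts at a defined step. AASS carries out the first steps of the mitochondrial breakdown of lysine through saccharopine, and GCDH oxidises the glutaryl-CoA that forms further down the same route. FAH cleaves fumarylacetoacetate, the last step of tyrosine breakdown, and HAL removes ammonia from histidine to give urocanate. CTH splits cystathionine to cysteine in the transsulfuration pathway and can also release hydrogen sulfide, while TST (rhodanese) is a mitochondrial sulfurtransferase that moves sulfur onto cyanide and other acceptors. ALDH1L1 is the cytosolic enzyme that oxidises formyltetrahydrofolate to tetrahydrofolate and carbon dioxide with the formation of NADPH. Most of these routes are best known from the liver and kidney, and adipose tissue is known for its use of branched-chain amino acids.

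The positions of the genes were taken from the RefSeq annotation of the pig build Sscrofa11.1 by symbol, which placed all 7. The lysine genes lie at 18:24938366-25039197 (AASS) and 2:66131154-66138963 (GCDH), and FAH lies at 7:49047833-49087790. HAL lies at 5:87522483-87547489 and TST at 5:10749264-10759623, on the same chromosome. CTH lies at 6:142454922-142486352 and ALDH1L1 at 7:53748585-53794777. ALDH1L1 was the member that the study also assayed by RT-qPCR, and the primers, which mark the transcript that assay read, are given here in lower case from 5′ to 3′ as the study lists them.
ALDH1L1 forward: cctgatgatgctgtcctg
ALDH1L1 reverse: ggagaccttcttcacattgc
The forward primer has 18 bases and the reverse primer 20, and each holds 10 G or C bases. RT-qPCR values of the study were not used here.

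Several libraries stood apart in ways that touch these genes. The second LBF library and the second LIMF library held transcripts known from the kidney, a list of 11 genes that was chosen after the values were seen. Its summed level was 26.2 FPKM in LBF replicate 2 and 36.8 FPKM in LIMF replicate 2, against 0.10 to 3.43 FPKM in the other 10 libraries. UMOD, uromodulin of the kidney tubule, was at 10.4 and 11.7 FPKM in these 2 libraries and at most 0.265 FPKM elsewhere. The third LBF library held skeletal muscle transcripts, with a summed level of 201 FPKM over 6 muscle markers against 0.645 to 2.47 FPKM in the other fat libraries. Tissue labels were otherwise borne out, since 8 adipocyte markers summed to 8334 to 13921.5 FPKM in the fat and 110 to 225 FPKM in the muscle, and the 6 muscle markers to 5820 FPKM or more in the muscle. ACTA1 was listed at 0 in 4 of the 6 muscle libraries and CKM in 2, although every muscle fibre uses these genes, so a 0 in this table is reported only as listed at 0.

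Enzymes of the same pathways followed the kidney transcripts. BHMT, which returns homocysteine to methionine in liver and kidney, was at 9.29 FPKM in LBF replicate 2 and 10.3 FPKM in LIMF replicate 2, and at 0.900 FPKM or less in the others. AADAT, the aminotransferase of the lysine route, was at 2.54 and 3.23 FPKM in the same pair of libraries and at most 0.138 FPKM elsewhere. Of 68 pathway genes with a value above 0 in both tissues, 13 had their highest fat level in LBF replicate 2 and their highest muscle level in LIMF replicate 2, whereas 4.58% of the 13767 genes above a mean FPKM of 0.05 in both tissues did so. None of the 7 catabolic genes was among the 13, but HGD, AMDHD1, MTR, MPST, SHMT1 and ATIC, whose fat values are given below, were. HAL reached 1.32 FPKM in LBF replicate 2, where TST was also highest, but was listed at 0 in LIMF replicate 2. Of the 6 genes with muscle values, 4 (AASS, FAH, CTH and ALDH1L1) had their highest LIMF level in replicate 2. The part of these transcripts in the results was not tested, and results are therefore also given without LBF replicate 2. The fat log2 fold change of TST was -0.83 without that library and -1.01 with it, and the values of the other 6 genes without it lay between -2.51 and -0.94.

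**Figure D1:**
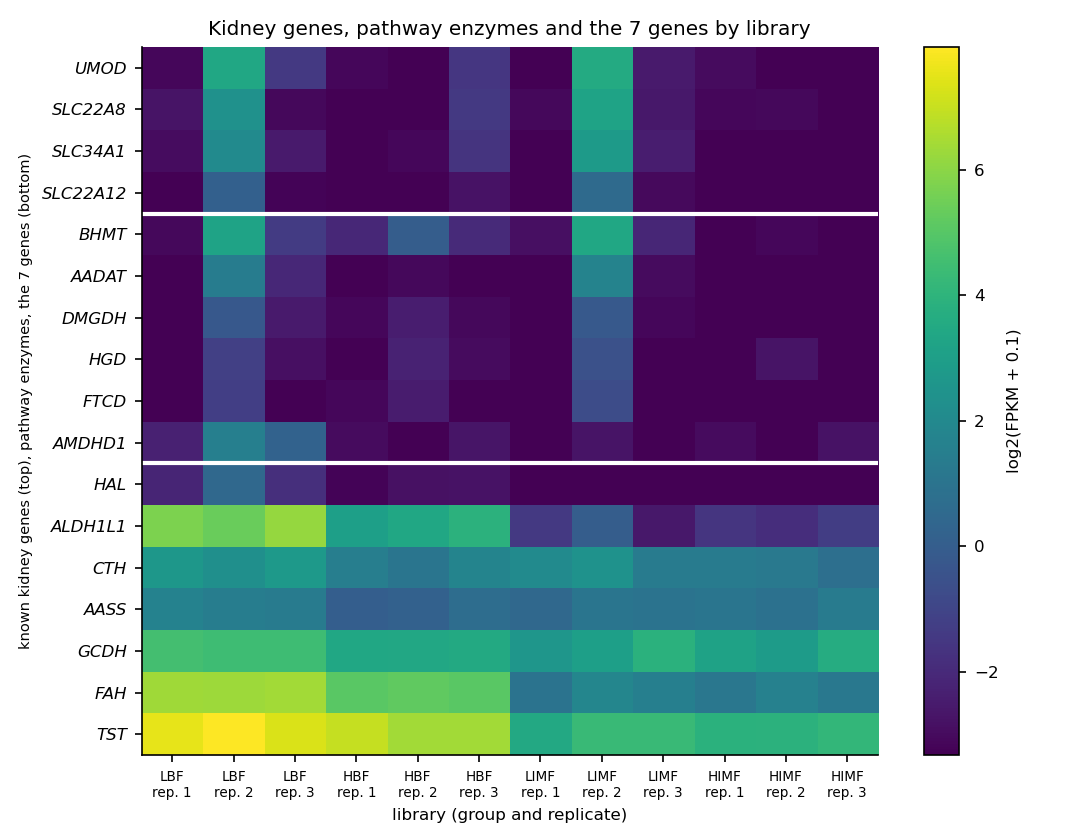
Heat map of log2(FPKM + 0.1) in each of the 12 libraries (columns, by group and replicate) for 4 known kidney genes, 6 other pathway enzymes and the 7 catabolic genes (rows). The kidney genes and enzymes such as BHMT and AADAT are bright in LBF replicate 2 and LIMF replicate 2, HAL and TST are highest in LBF replicate 2, and 4 of the 6 genes with muscle values have their highest LIMF level in replicate 2.

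The 7 genes covered a wide range of levels in the fat. In LBF the order by mean was TST (197 ± 46.0 FPKM, SD, n = 3), FAH (80.8 ± 1.97), ALDH1L1 (55.8 ± 15.6), GCDH (22.6 ± 1.20), CTH (5.82 ± 0.941), AASS (2.75 ± 0.356) and then HAL, and the libraries of neighbours in this order did not overlap. The TST mean lay above 98.5% of the 16184 genes expressed in LBF (mean FPKM above 0.05), and the FAH mean above 96.3% of them. The same order held in HBF, where ALDH1L1 and GCDH overlapped at 11.2 ± 3.61 and 10.9 ± 0.466 FPKM. In the muscle TST and GCDH were the highest, and FAH and ALDH1L1 ranked below GCDH. The replicate spread differed as well, from a coefficient of variation of 2.44% for FAH to 27.9% for ALDH1L1 and 124% for HAL within LBF.

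**Figure D2:**
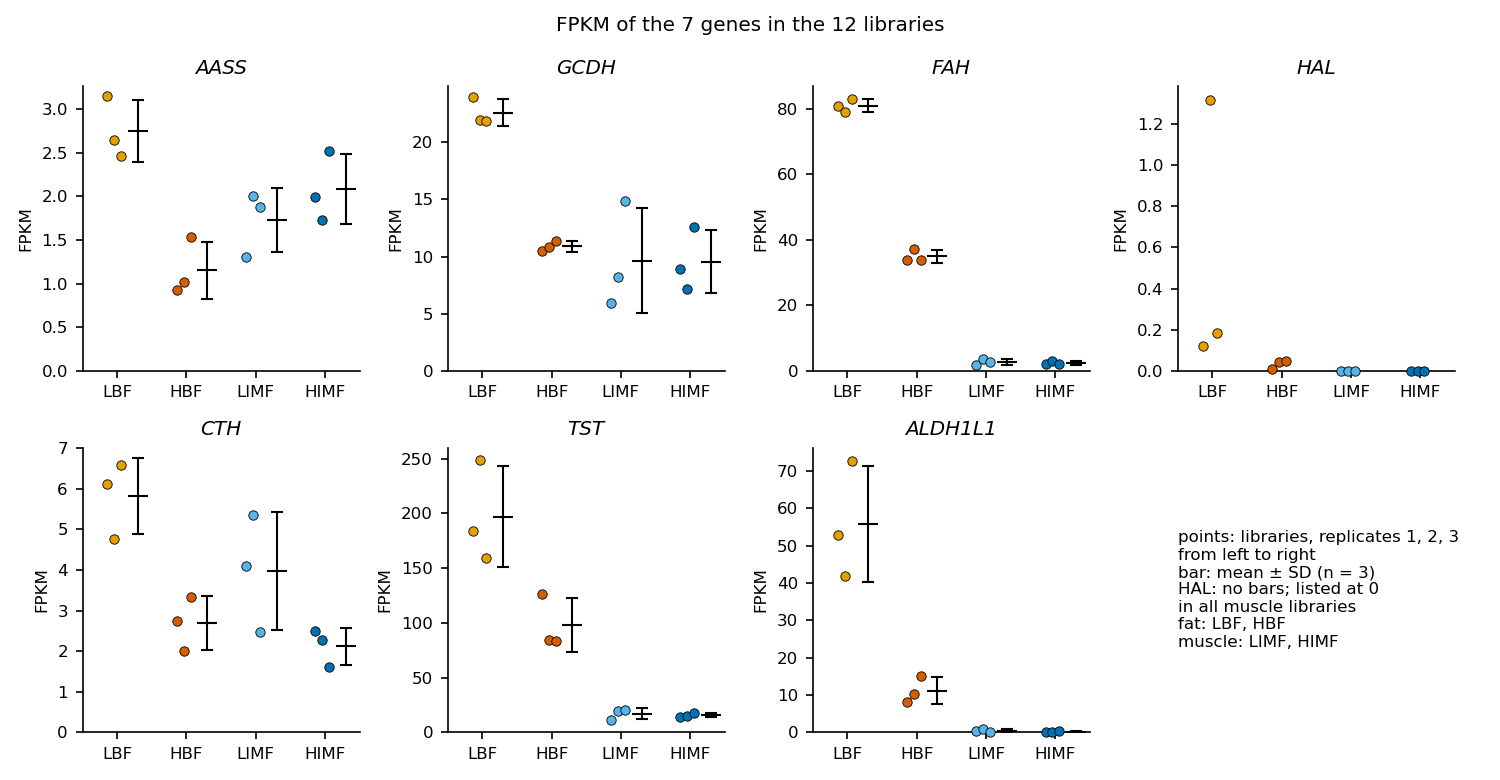
FPKM (y axis, linear, from 0) of the 7 genes in the 4 groups (x axis), with 1 point per library and the mean ± SD of 3 libraries as a bar, except for HAL. All HBF points lie below all LBF points in every panel, the LIMF and HIMF points of 6 genes overlap, and HAL lies at 0 in the muscle.

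The first question was how the genes differed between pigs with thick and thin backfat. In the lysine route AASS was at 3.15, 2.65 and 2.46 FPKM in LBF against 0.922, 1.02 and 1.53 FPKM in HBF. Every HBF library lay below every LBF library, and the log2 fold change, high minus low on log2(FPKM + 0.1), was -1.21 ± 0.25 (SE). GCDH was at 24.0, 21.9 and 21.9 FPKM in LBF against 10.46, 10.8 and 11.4 FPKM in HBF. These are tight groups with a wide gap, and the LBF mean was 2.08 times the HBF mean. Of all 16239 genes tested, 6.46% had all HBF libraries below all LBF libraries, as all 7 genes were by the way they were chosen. After median-of-ratios scaling of the libraries that background rose to 9.69%, and the 7 genes still did not overlap.

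Of the 10 other lysine genes, 5 lay lower in every HBF library, 1 higher and 4 overlapped. Among the pathway genes named here and in the next paragraphs, DHTKD1, ACAT1, CBS, GNMT, MTR and SHMT1 also stand in the study's table. Their fat values, like those of the 7 genes, are no independent evidence. ALDH7A1, which oxidises the semialdehyde made after AASS, was at 73.6, 65.1 and 71.2 FPKM in LBF against 29.8, 40.7 and 40.4 FPKM in HBF. DHTKD1, a subunit of the complex that makes glutaryl-CoA for GCDH, was at 5.50, 6.38 and 6.80 FPKM in LBF against 2.82, 2.59 and 3.25 FPKM in HBF. ECHS1 and ACAT1, which work on the products of GCDH and also on fatty acids and branched-chain amino acids, had log2 fold changes of -1.08 ± 0.27 and -0.90 ± 0.16. DLD, shared by several dehydrogenase complexes, did not overlap either, with a smaller value of -0.22 ± 0.12. In the other direction DLST, another subunit of the complex that makes glutaryl-CoA, was at 20.0, 21.8 and 22.4 FPKM in LBF and 25.3, 23.2 and 22.8 FPKM in HBF. The ratio of AASS to ALDH7A1 within a library, which needs no scaling between libraries, was 0.0345 to 0.0428 in LBF and 0.0250 to 0.0379 in HBF, and the ratio of GCDH to DHTKD1 was 3.22 to 4.36 in LBF and 3.502 to 4.18 in HBF. Both ratios overlapped between the groups.

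FAH was at 80.8, 78.9 and 82.8 FPKM in LBF against 33.7, 37.3 and 33.8 FPKM in HBF. The libraries of each group lay close together, and the log2 fold change was -1.21 ± 0.11. GSTZ1, which makes the substrate of FAH, was at 14.04, 16.1 and 18.9 FPKM in LBF against 6.21, 10.7 and 11.98 FPKM in HBF, without overlap. PCBD1 and QDPR, which recycle tetrahydrobiopterin, had log2 fold changes of -0.54 ± 0.18 and -0.57 ± 0.15, also without overlap. Earlier enzymes of the route were low in this tissue, with HGD at 0.345 FPKM or less and TAT at 0.353 FPKM or less in every fat library. The level of FAH was 4.38 to 5.75 times that of GSTZ1 within the LBF libraries and 2.82 to 5.43 times within the HBF libraries, so this ratio overlapped.

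HAL was at 0.123, 1.32 and 0.186 FPKM in LBF against 0.00920, 0.0426 and 0.0480 FPKM in HBF. The value of LBF replicate 2 was far above the others, and this was the library with the kidney transcripts. The log2 fold change was -1.77 ± 0.69 with all libraries and -0.94 without LBF replicate 2. It was -0.50 with a pseudocount of 1 and -3.07 with one of 0.01, as the level is near the pseudocount. UROC1, which takes up the product of HAL, was at 0.0613 FPKM or less in every library. AMDHD1, the enzyme after UROC1, showed a pattern like that of HAL, with 0.104, 2.81 and 1.05 FPKM in LBF and 0.0262, 0 and 0.0548 FPKM in HBF.

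CTH was at 6.11, 4.77 and 6.58 FPKM in LBF against 2.73, 2.02 and 3.34 FPKM in HBF. No library overlapped, and the log2 fold change was -1.10 ± 0.23. CBS, which makes the cystathionine that CTH splits, was at 11.3, 8.95 and 7.23 FPKM in LBF against 1.99, 1.18 and 3.48 FPKM in HBF. The ratio of CTH to CBS was 0.533 to 0.911 in the LBF libraries and 0.961 to 1.71 in the HBF libraries, without overlap but with little between the nearest libraries. Both genes are in the study's table of genes lower in HBF, and the pairs used for ratios were chosen after the values were seen, so these ratios are a description. TST was at 184, 248 and 159.5 FPKM in LBF against 127, 84.1 and 83.2 FPKM in HBF, and the HBF mean was 0.497 times the LBF mean.

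Other genes of sulfur metabolism lay lower, higher or overlapped, and none passed the limits. SQOR, the mitochondrial enzyme that oxidises hydrogen sulfide upstream of TST, was at 22.8, 30.2 and 35.1 FPKM in LBF against 24.8, 38.3 and 28.7 FPKM in HBF, which overlap. The ratio of TST to SQOR was 4.55 to 8.24 in LBF and 2.19 to 5.11 in HBF, which overlap. MPST, a sulfurtransferase related to TST, was at 4.86, 9.88 and 2.43 FPKM in LBF against 4.15, 2.68 and 1.71 FPKM in HBF, with overlap. GNMT, which uses up S-adenosylmethionine, and MTR, methionine synthase, had log2 fold changes of -2.30 ± 0.37 and -1.17 ± 0.27 without overlap. SUOX, sulfite oxidase, was at 10.04 to 13.4 FPKM in LBF against 8.31 to 8.33 FPKM in HBF, and AHCYL2 had a log2 fold change of -0.50 ± 0.20 without overlap. MAT2A, which makes S-adenosylmethionine outside the liver, was higher in every HBF library, at 144, 166 and 145 FPKM against 92.6, 107 and 132 FPKM in LBF.

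ALDH1L1 showed the widest gap of the 7 genes in the ratio of the means, apart from HAL. It was at 52.9, 41.8 and 72.6 FPKM in LBF against 8.08, 10.4 and 15.1 FPKM in HBF. The LBF mean was 4.98 times the HBF mean, and the log2 fold change was -2.32 ± 0.28. Its mitochondrial relative ALDH1L2 was at 45.1, 28.1 and 25.4 FPKM in LBF against 19.8, 27.4 and 23.0 FPKM in HBF, which overlap. ALDH1L1 was 1.17 to 2.86 times as high as ALDH1L2 in the LBF libraries and 0.378 to 0.658 times as high in the HBF libraries. Against MTHFD1, the cytosolic enzyme that makes formyltetrahydrofolate, the ratio was 3.38 to 4.63 in LBF and 0.900 to 1.25 in HBF. Neither ratio overlapped between the groups, but ALDH1L1 was chosen for its fat change and these 2 genes were not, so the ratios are a description.

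SHMT1, which passes carbon units from serine to folate in the cytosol, was at 9.16, 28.9 and 20.3 FPKM in LBF against 3.87, 5.88 and 6.55 FPKM in HBF. Its mitochondrial relative SHMT2 and the purine synthesis enzyme ATIC had log2 fold changes of -0.69 ± 0.19 and -0.63 ± 0.18, and neither overlapped. MTHFD2L, at 0.590 FPKM or less in the fat, did not overlap either, with -0.51 ± 0.30. MTHFD1L was higher in every HBF library, at 1.22, 0.814 and 1.16 FPKM against 0.806, 0.772 and 0.626 FPKM in LBF.

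In the fat no gene passed both limits, which were a Benjamini-Hochberg adjusted p below 0.01 in limma and a log2 fold change of 1 or more in either direction, and the share called was thus 0.0%. Before adjustment 2206 genes had a p below 0.05, of which 68.9% were higher in HBF as deposited and 49.0% of 1986 after median-of-ratios scaling. Adjusted p-values of the 7 genes in that limma fit lay between 0.128 and 0.337. An exact permutation test of 3 libraries against 3 cannot give a two-sided p under 0.1, and each of the 7 genes gave that value.

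Across the 5 pathway lists, 69 of 75 genes could be matched and 68 had a mean FPKM above 0.05 in the fat. The lists were drawn up with earlier results of these data known. Of the 68 genes, 25 were lower in every HBF library (36.8%) and 3 were higher (4.41%), beside 6.46% lower and 13.9% higher among all genes tested. Without the 7 catabolic genes the count lower was 18 of 61 (29.5%). It was 12 of 55 (21.8%) when all genes in the study's own table were also set aside, which removes genes because they were low. The median log2 fold change of the 61 genes was -0.34, and that of all genes was 0.09. After median-of-ratios scaling 22 of the 61 genes were lower without overlap and 1 higher, with 9.69% and 9.22% of all genes. Without LBF replicate 2 the count lower was 23 and the count higher 5, beside 11.0% and 20.1% of all genes. Without LBF replicate 3 these counts were 21 and 6, beside 11.2% and 23.2% of all genes.

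By pathway, 7 of 12 lysine genes, 4 of 8 phenylalanine and tyrosine genes, 2 of 5 histidine genes, 7 of 21 sulfur genes and 5 of 22 folate genes were lower in every HBF library, each count including its catabolic genes named above. Among all genes tested the share was 6.46%. The lysine list had a median of -0.92 and the folate list of -0.15. In the folate list MTHFD2, MTHFS, GART and SLC25A32 had values between -0.01 and 0.11 on the log2 scale and overlapped, and the folate receptor FOLR2 was at -0.18 ± 0.19.

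**Figure D3:**
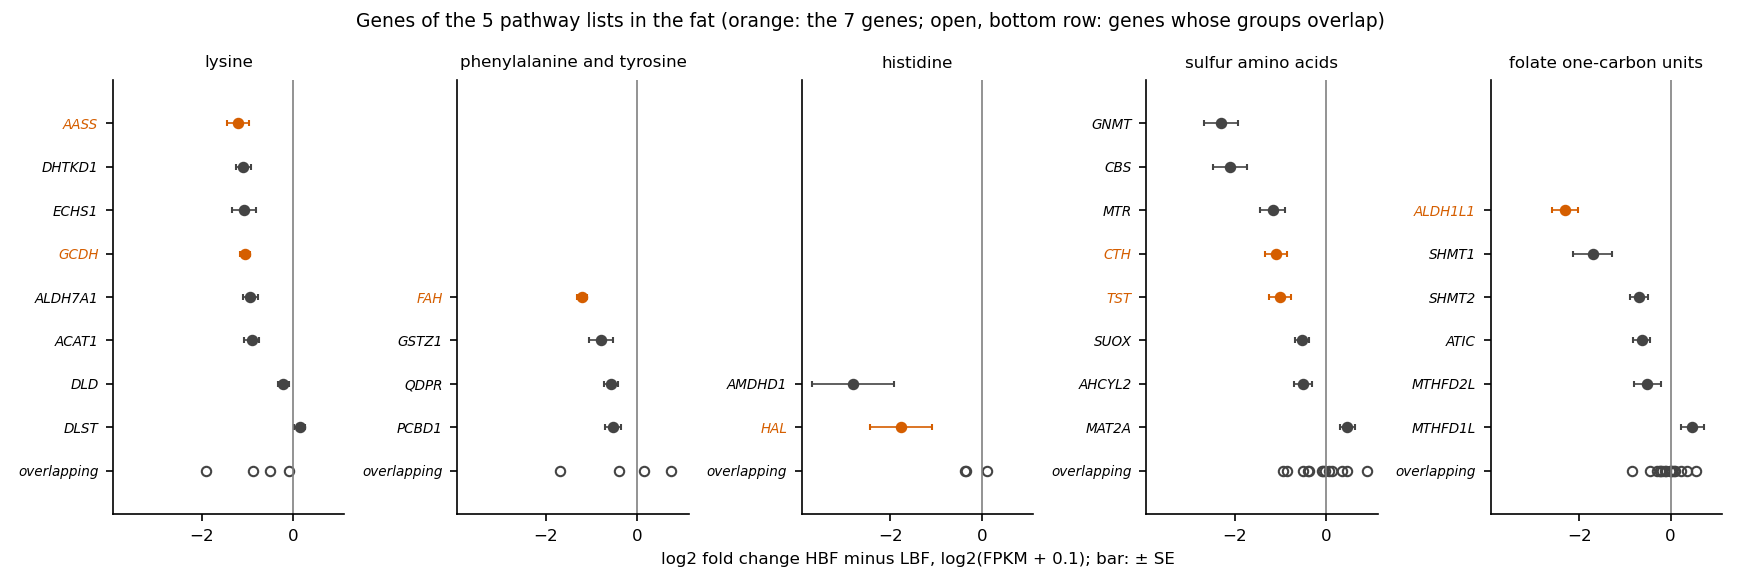
Log2 fold change HBF minus LBF on log2(FPKM + 0.1) with its SE (x axis) for the 68 genes of the 5 lists (rows, by list). Named rows with filled points are genes whose HBF and LBF libraries do not overlap, with the 7 catabolic genes in orange, 18 further genes left of 0 and 3 right of 0, and the open points of the bottom row are the other genes of each list, without their SE.

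Markers of cell types did not move alike in the fat. The 8 adipocyte markers summed to 8334 to 11073 FPKM in LBF and 8593 to 13921.5 FPKM in HBF, with LPL lower and LEP higher in every HBF library. Macrophage and leukocyte markers summed to 38.4 to 152 FPKM in LBF and 120 to 144 FPKM in HBF, where 2 of 6 were higher without overlap, and 5 of 6 when LBF replicate 3 was left out, beside 13.9% and 23.2% of all genes. Fibroblast markers summed to 2346 to 7525 FPKM and 1618 to 3808 FPKM with no marker of 6 apart, and endothelial markers to 152 to 314 FPKM and 265 to 413 FPKM with none of 4 apart. Without LBF replicate 2, however, 4 of the 6 fibroblast markers were lower and 3 of the 4 endothelial markers higher in every HBF library, as were 11.0% and 20.1% of all genes. Skeletal muscle markers summed to 1.83 to 201 FPKM in LBF and 0.645 to 2.12 FPKM in HBF, and all 6 had log2 fold changes below 0, with a median of -1.98. Of these, 2 (CASQ1 and ACTN2) were lower without overlap, beside 6.46% of all genes. Both, like LPL, stand in the study's table of genes lower in HBF, so their fat values are no independent evidence. Without LBF replicate 3 another 2 were higher, beside 23.2% of all genes. Both erythroid markers, HBB and ALAS2, were lower in every HBF library, beside 6.46% of all genes. Their sums were 251 to 621 FPKM in LBF and 48.8 to 191 FPKM in HBF. Hepatocyte markers, led by APOA1, summed to 92.5 to 103 FPKM in LBF and 138 to 179.5 FPKM in HBF, 1 of 5 tested being apart. Epidermal markers summed to 1.17 to 1.88 FPKM and 1.93 to 2.68 FPKM, with the keratin KRT1 listed at 0 in LBF. The part of these cell types in the values of the 7 genes was not tested.

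The muscle asked whether the same genes differ with intramuscular fat, a contrast that had no part in their choice. None of the 6 genes with muscle values separated HIMF from LIMF. AASS was at 1.31, 2.004 and 1.88 FPKM in LIMF against 1.99, 1.73 and 2.52 FPKM in HIMF, a log2 fold change of 0.26 with a 95% confidence interval of -0.36 to 0.88. GCDH was at 5.94, 8.18 and 14.8 FPKM in LIMF against 8.91, 7.15 and 12.6 FPKM in HIMF, a log2 fold change of 0.05 with an interval of -0.79 to 0.89. FAH was at 1.87, 3.57 and 2.85 FPKM in LIMF against 2.09, 2.97 and 2.19 FPKM in HIMF, a log2 fold change of -0.16 with an interval of -0.84 to 0.53. TST was at 11.2, 19.7 and 20.1 FPKM in LIMF against 14.5, 15.01 and 17.5 FPKM in HIMF, a log2 fold change of -0.07 with an interval of -0.68 to 0.54. The HIMF libraries of TST all fell inside the range of LIMF.

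CTH came nearest to a difference in the muscle. It was at 4.11, 5.36 and 2.48 FPKM in LIMF against 2.49, 2.27 and 1.62 FPKM in HIMF, so the highest HIMF library lay just above the lowest LIMF library. The log2 fold change was -0.83 with an interval of -1.58 to -0.07, its adjusted p in limma was 0.675, and the exact permutation p was 0.2. The highest CTH value was in LIMF replicate 2, the library with kidney transcripts, and the value without it was -0.59. It was -1.13 without LIMF replicate 3, where the groups did not overlap and the adjusted p in limma was 0.163. ALDH1L1 was at 0.265, 0.907 and 0.0659 FPKM in LIMF against 0.237, 0.174 and 0.316 FPKM in HIMF. The high LIMF library was again replicate 2, and the log2 fold change was -0.22 with all libraries, with an interval of -1.64 to 1.20, and 0.45 without it. HAL was listed at 0 in all 6 muscle libraries and could not be tested.

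Adjusted p-values of the 6 genes tested in the muscle ran from 0.675 to 0.985 in limma. No gene of the 14292 tested passed both limits there (0.0%), with 1004 at an unadjusted p under 0.05. Of 63 pathway genes tested, 2 were lower in every HIMF library and 2 higher (3.17% each), beside 4.74% and 7.93% of all genes. Without LIMF replicate 2 the counts were 2 lower and 6 higher (3.17% and 9.52%), beside 8.21% and 13.6% of all genes. AHCYL1, a relative of the enzyme that splits S-adenosylhomocysteine, was at 12.9, 17.0 and 23.4 FPKM in LIMF against 43.7, 41.5 and 32.4 FPKM in HIMF. FOLR2 was at 4.59 to 5.73 FPKM in LIMF and 7.01 to 9.42 FPKM in HIMF. The 2 genes lower in HIMF were MTHFD1L, at 0.147 FPKM or less in the muscle, and BHMT, whose level rested on LIMF replicate 2. In the muscle the adipocyte markers summed to 181 to 225 FPKM in LIMF and 110 to 173 FPKM in HIMF, although 3 of 8, ADIPOQ, PLIN1 and LEP, were higher in every HIMF library, and LPL was lower.

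**Figure D4:**
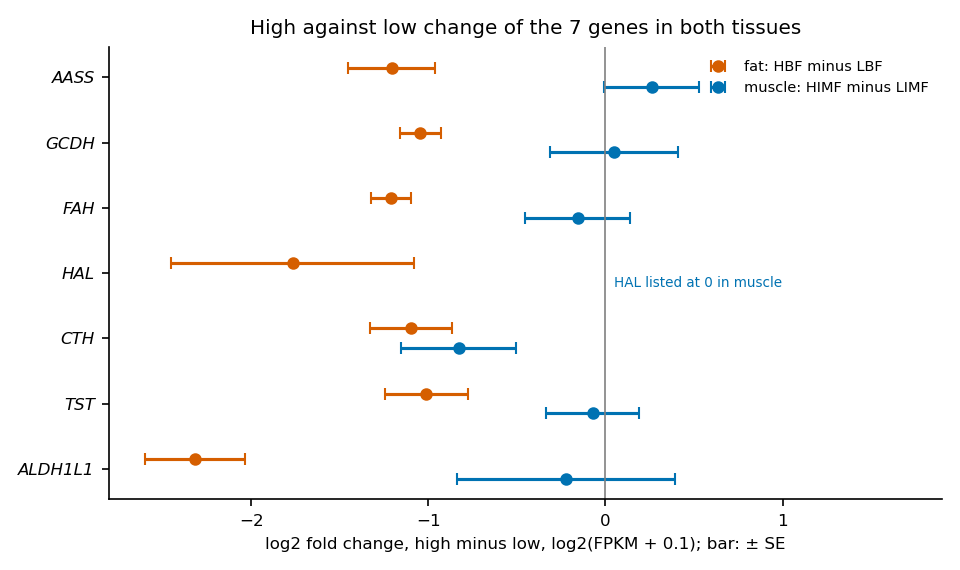
Log2 fold change, high minus low, on log2(FPKM + 0.1) with its SE (x axis) for the 7 genes (rows) in the fat (orange) and the muscle (blue). The fat values lie between -2.32 and -1.01 and the muscle values between -0.83 and 0.26, and HAL has no muscle value.

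The difference between the tissues in the high against low change was then computed, fat less muscle, for the 6 genes with values in both. It was -2.09 ± 0.73 for ALDH1L1, -1.47 ± 0.36 for AASS, -1.10 ± 0.41 for GCDH, -1.05 ± 0.30 for FAH, -0.94 ± 0.37 for TST and -0.27 ± 0.42 for CTH on the log2 scale. The adjusted p-values in limma lay between 0.275 and 0.847, so none passed 0.05, nor did any of the 15965 genes tested (0.0%), of which 1628 had an unadjusted p under 0.05. Relabelling the libraries within each tissue gave an exact permutation p of 0.025 for AASS and of 0.065 to 0.745 for the other 5. The fat side of this difference is the one that led to the choice of the genes.

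Between the tissues, 3 of the genes were far higher in the fat. The choice of the genes did not use this contrast, but it drew on a table of changes in the fat. A gene must be expressed in the fat to be listed there, so the tissue values are not free of the choice. ALDH1L1 was at 8.08 FPKM or more in every fat library and at 0.907 FPKM or less in every muscle library, and the mean of the 6 fat libraries was 102 times that of the 6 muscle libraries. Its log2 fold change, fat minus muscle, was 6.07 ± 0.37, with an adjusted p of 2.7e-08 in limma. FAH was at 33.7 to 82.8 FPKM in the fat and at 1.87 to 3.57 FPKM in the muscle, a log2 fold change of 4.34 ± 0.15 (limma, adjusted p = 4.6e-10). TST was at 83.2 to 248 FPKM in the fat and at 11.2 to 20.1 FPKM in the muscle, a log2 fold change of 3.08 ± 0.18 (limma, adjusted p = 2.4e-08). These genes did not overlap between the tissues, like 49.3% of all genes tested that were higher in every fat library (25.9% after median-of-ratios scaling), and each gave the exact permutation p of 0.00216, the smallest that 6 libraries against 6 can give. Among all 15965 genes tested, 56.4% passed both limits, 7526 of them with the fat higher (47.1%) and 1483 with the muscle higher. After median-of-ratios scaling the split was 4220 against 3410 genes.

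As deposited, the fat minus muscle median over all genes was 0.97 on the log2 scale, and it was 0.15 after median-of-ratios scaling and 0.10 after quantile normalization. Relative to the deposited median the 3 genes were higher in the fat by 5.10 (ALDH1L1), 3.38 (FAH) and 2.12 (TST). GCDH, CTH and AASS were not. GCDH was at 10.46 to 24.0 FPKM in the fat and 5.94 to 14.8 FPKM in the muscle, a log2 fold change of 0.77 ± 0.20, which missed the limit on size and is -0.19 relative to the median and -0.26 after median-of-ratios scaling. CTH was at 2.02 to 6.58 FPKM in the fat and 1.62 to 5.36 FPKM in the muscle, with 0.46 ± 0.21 as deposited and -0.56 after median-of-ratios scaling. AASS was at 0.922 to 3.15 FPKM in the fat and 1.31 to 2.52 FPKM in the muscle, with -0.08 ± 0.18 as deposited. After median-of-ratios scaling AASS was at -1.06, with an adjusted p of 0.00012 in limma, so its place below the muscle passed both limits only after such scaling. For HAL, at 0.00920 to 1.32 FPKM in the fat and listed at 0 in the muscle, no fold is given.

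**Figure D5:**
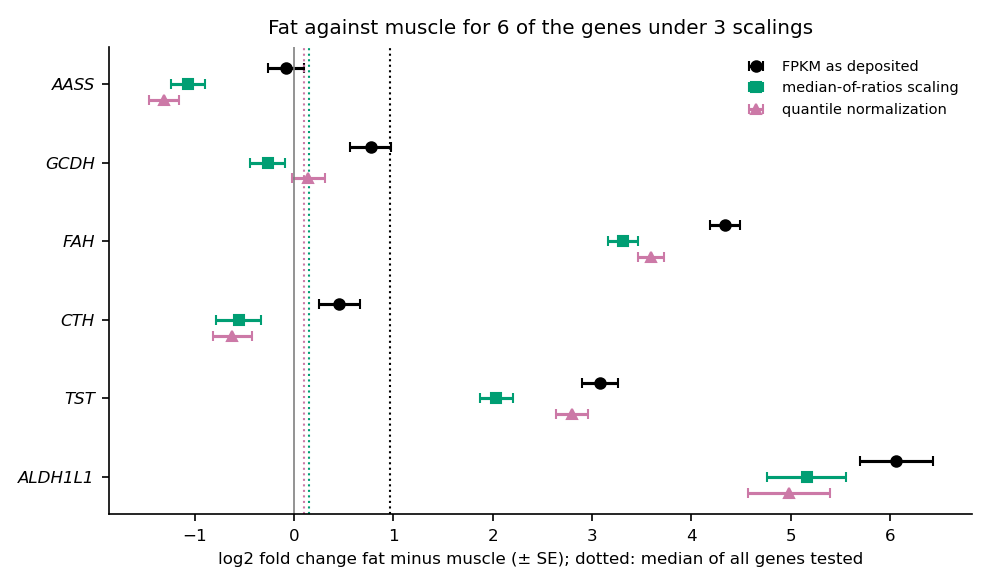
Log2 fold change fat minus muscle with its SE (x axis) for the 6 genes with values in both tissues (rows) under 3 scalings of the FPKM, with the median of all genes tested under each as a dotted line. ALDH1L1, FAH and TST lie right of all 3 medians, whereas the sign of GCDH and CTH turns with the scaling and AASS moves from -0.08 to -1.06 and -1.31.

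The order of the 4 groups in the FPKM as deposited differed between these genes. FAH, TST and ALDH1L1 ran from LBF to HBF to the muscle groups with gaps between LBF, HBF and LIMF, while LIMF and HIMF overlapped. GCDH separated LBF from HBF only, as HBF at 10.9 ± 0.466 FPKM overlapped with LIMF at 9.65 ± 4.62 FPKM and HIMF at 9.55 ± 2.77 FPKM. For CTH the order was LBF, LIMF, HBF and HIMF, and for AASS it was LBF, HIMF, LIMF and HBF, with neighbours overlapping throughout. As deposited, AASS was thus the one of the 7 genes with its lowest mean in HBF, at 1.16 ± 0.326 FPKM against 1.73 ± 0.371 FPKM in LIMF. This order across tissues depends on the scaling, as GCDH and CTH also lay below the muscle after median-of-ratios scaling.

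The pathway lists as a whole were spread over both tissues. As deposited, 34 of 67 genes tested passed both limits with the fat higher (50.7%, HAL included) and 5 with the muscle higher (7.46%). These shares were near the 47.1% and 9.29% of all genes, and the median log2 fold change was 1.21 beside 0.97. After median-of-ratios scaling 32.8% of the 67 genes were higher in every fat library and 13.4% lower, beside 25.9% and 25.0% of all genes. ALDH7A1 at 2.63 and CBS at 4.43 were among those higher in the fat, as were SQOR at 3.68, ALDH1L2 at 3.84, MPST at 3.20, MTHFD1 at 2.30 and SHMT1 at 2.13 on the log2 scale. Higher in the muscle were DLST at -1.46, DLD at -1.66 and GOT1 at -2.52, together with CARNMT1 at -1.67, which methylates the histidine dipeptide carnosine, and KYAT1 at -2.23. GSTZ1 and DHTKD1, the neighbours of FAH and GCDH, did not pass, at -0.02 and 0.36. In the muscle libraries FAH was 0.142 to 0.368 times as high as GSTZ1, while it was above GSTZ1 in every fat library.

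For each of the 7 genes the named gene with the most similar profile over the 12 libraries was sought among 9838 genes with a mean FPKM above 1. Likeness was the root mean square difference of log2(FPKM + 0.1) after centring each gene. The closest gene to GCDH was MCEE, a mitochondrial enzyme of propionate breakdown, at 0.25, with 8.49 FPKM in LBF and 4.89 FPKM in HBF on average. For AASS it was FN3K at 0.28, for TST it was FMO4 at 0.31, for FAH it was PLSCR4 at 0.32 and for CTH it was PCYT2 at 0.35. WDR17 for HAL was at 0.50 and LSS for ALDH1L1 at 0.73. These differences are to be read against the spread of each gene's own profile on the same scale, which was 0.50 for AASS, 0.62 for GCDH and CTH, 1.08 for HAL, 1.61 for TST, 2.22 for FAH and 3.20 for ALDH1L1. LSS, an enzyme of cholesterol synthesis, averaged 58.6 FPKM in LBF, 30.8 FPKM in HBF, 0.440 FPKM in LIMF and 0.537 FPKM in HIMF. These values describe the 12 libraries, whose profiles hold both the tissue and the groups within it.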

How the data were processed

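Per the labels and methods of the study, the authors filtered reads with fastp, aligned them with HISAT2 to Sscrofa11.1, and computed FPKM with Cufflinks 2.2.1, and these deposited FPKM of 12 libraries were used. The authors tested group differences with DESeq2 1.25.9, and its gene tables serve here only to mark which genes they hold. The 31910 rows carry 31903 identifiers, as 7 are on 2 rows each, which were summed, and 15027 identifiers matched a gene name.

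Groups were compared with limma 3.58.1 in R 4.3.3 (lmFit, eBayes with trend) on log2(FPKM + 0.1), a scale that understates the change of low genes, keeping genes whose mean over the compared libraries exceeded 0.05 FPKM, with Benjamini-Hochberg adjustment over every gene tested. The limits for a call were an adjusted p below 0.01 with a log2 fold change of 1 or more in either direction, or an adjusted p below 0.05 for the difference between the tissues. Exact permutation tests were two-sided. Depth is unknown from FPKM. The p-values measure the spread between libraries, each taken as a different pig. The deposited library codes repeat their numbers between the tissues, and whether these mark the same pigs is not stated. If they do, the tests that use both tissues take no account of that pairing. The procedure was tested on simulated data.

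The 7 genes, the pathway lists and the marker lists were chosen with earlier results of these data known, and the kidney list and the pairs used for ratios after the values were seen. Named from the pathway lists were genes past the limits, genes without overlap between high and low groups, and direct neighbours of the 7 genes. AADAT, TAT, HGD, MTHFS, SLC25A32, the single marker genes and, in the heat map, DMGDH and FTCD, outside that rule, were chosen after their values were seen. Alternatives were other pseudocounts, filters and scalings, leaving out libraries, a replicate block, 1 fit of all 12 libraries and eBayes without trend. Some pathway genes are counted in the lists but not reported here by name. Proteome and RT-qPCR values were not analysed here.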

Additional observations from a re-analysis of the deposited data

Results flagged for a closer look

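AASS was flagged because its high against low change differed between the tissues, at -1.47 ± 0.36 (fat less muscle, log2 scale), with an exact permutation p of 0.025 over 400 relabellings and an adjusted p of 0.275 in limma. All 3 HBF libraries lay below all 3 LBF libraries, while the HIMF and LIMF libraries overlapped and their means differed in the other direction, 2.08 ± 0.402 against 1.73 ± 0.371 FPKM (SD, n = 3 each). The value ranged from -1.67 to -1.29 when any 1 library was left out, and it was -1.60 without LBF replicate 2 and LIMF replicate 2 together. The fat contrast is also the one by which the gene was chosen.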

How the results depend on the processing

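The settings tried were those named in the methods, with each library left out in turn and, chosen after the data were seen, LBF replicate 2 and LIMF replicate 2 left out together. In the fat the log2 fold changes of the 7 genes kept their direction and stayed outside the limits under all 104 refits. Calls among all genes numbered 0 in the fat and 0 to 2 with 1 library left out, and in the muscle 0, with 1 in a fit of all 12 libraries and 0 to 5 with 1 library left out, the 5 without LIMF replicate 1. For the difference between the tissues the count of 0 became 1 with a pseudocount of 1 or of 0.01, 11 with no filter on expression, 2 with eBayes without trend, and 5 without LBF replicate 2 and LIMF replicate 2. With 1 library left out it ran from 0 to 118, the 118 without LIMF replicate 3, and the cause was not tested. Of 1628 genes at an unadjusted p under 0.05 for that difference, 56.3% had the higher change in the fat, and 45.7% of 1745 after quantile normalization. Calls between the tissues fell from 9009 to 5864 with a pseudocount of 1, which shrinks the fold changes of low genes.

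In the muscle the direction of small values turned. GCDH was at -0.0024 after median-of-ratios scaling and between -0.24 and 0.41 with 1 library left out (-0.24 without LIMF replicate 1, -0.016 without LIMF replicate 2, -0.17 without HIMF replicate 3). With 1 library left out FAH ran from -0.41 to 0.045 (the latter without LIMF replicate 2), TST from -0.35 to 0.074 (0.059 without LIMF replicate 2 and 0.074 without LIMF replicate 3) and ALDH1L1 from -0.85 to 0.45 (the latter without LIMF replicate 2). The difference between the tissues for CTH ran from -0.51 to 0.030 (the latter without LIMF replicate 3) and was -0.65 without LBF replicate 2 and LIMF replicate 2. Between the tissues GCDH reversed to -0.26 and CTH to -0.56 after median-of-ratios scaling, and CTH to -0.62 after quantile normalization, where AASS, at -1.06 and -1.31 in these settings, passed the limits. All other refits, 81 in the muscle, 125 for the difference and 121 between the tissues, kept direction and side of the limits. They cover the genes with muscle values, so HAL is not among them.

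Same-numbered libraries of the high and low groups did not deviate together in every pair, with correlations of 0.0343 to 0.1383 in the fat and -0.0583 to 0.0112 in the muscle over 11082 genes, so the numbers were not taken to pair high with low pigs. Fat and muscle libraries of the same number were not compared in this way. With the replicate number as a block the calls were 0 in the fat, 0 in the muscle, 0 for the difference and 9000 between the tissues. FPKM give no depth.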
